A study of Caenorhabditis elegans with 16 samples.

Results

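*mltn-3* (*W02B8.3*), *dct-11* (*W06B11.3*), *nlp-40* (*Y74C9A.2*), *T05A8.1* and *F56B3.6* are 5 of the 20535 protein-coding genes counted in 10 small RNA libraries of *Caenorhabditis elegans*. They were chosen by their gains of antisense reads in *cde-1* mutants in these same libraries, and 12 transcript rows of each count file belong to them. For each gene, the ratio of antisense reads in the pair of libraries where it ranked first or second among well-covered genes is taken as what chose it, and is given as a description. Earlier results of these data were known at the choice, so ratios and ranks in the other pairs are also a description. The question was whether the gain appeared in every Argonaute examined or in 1 of them.

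The libraries formed 5 pairs that differ in *cde-1*, each genotype being 1 library grown at 20 °C. Total small RNA came from young adults, N2 against *cde-1(tm936)*. The immunoprecipitates (IPs) came from GFP::NRDE-3 embryos, from *eri-1(mg366)*;GFP::NRDE-3 animals labelled as L3 larvae, and from GFP::HRDE-1 and GFP::WAGO-1 young adults, each against the same strain carrying *cde-1(tm936)*. The *eri-1* pair was fed HT115 bacteria and all the others OP50, and both genotypes of that pair carry *eri-1(mg366)*. Each transgene was driven by the promoter of its own Argonaute gene, and the tagged proteins were collected with an anti-FLAG antibody. With 1 library per genotype there was no replicate check and no test, and every interval below is a 95% interval for counting error alone.

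Secondary siRNAs of *C. elegans* are copied from mRNA templates by RNA-dependent RNA polymerases, so they lie antisense to the gene they came from, and worm-specific Argonautes bind them. NRDE-3 carries them into nuclei of somatic cells, HRDE-1 acts in germ cell nuclei, and WAGO-1 acts in the germline cytoplasm. CDE-1 is a poly(U) polymerase that adds uridines to the 3′ ends of RNAs, siRNAs among them.

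Levels are antisense reads per 1000000 counted reads outside the rRNA class (RPM), with the isoform rows of a gene summed. The libraries held 5200610 to 9919222 counted reads, of which 3041177 to 6806774 lay outside rRNA, so that a single read was worth 0.147 to 0.329 RPM. The embryo control stood apart, with 66.2% of its reads on rRNA against 26.9% in its mutant partner and 10.3% to 50.3% in the others. In both *eri-1* NRDE-3 IP libraries only 12.6% and 20.6% of the protein-coding reads were antisense, near the 14.9% and 18.3% of total small RNA and far from the 72.1% to 88.3% of the other 6 IP libraries. Sense reads on *cde-1* (listed as *cid-1*) were lower in every mutant, from 98.3 to 17.1 RPM in total small RNA and from 104 to 25.2, 80.3 to 24.7, 43.6 to 12.0 and 11.5 to 0.352 RPM in the *eri-1* NRDE-3, HRDE-1, WAGO-1 and embryo IPs.

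A gene was called higher where the mutant's RPM was at least 2-fold that of the control after 1 read was added to each count. Of the 5 genes, 5 were called higher in total small RNA, as were 22.8% of the genes for which either library held 50 reads or more (the genes tested) and 24.0% of the genes with any read. In the HRDE-1 IP, 4 of the 5 were called, against 28.0% of the genes tested and 15.4% of those with any read. WAGO-1 also gave 4 of the 5, against 15.5% and 11.7%. The *eri-1* NRDE-3 IP gave 4 of the 5 against 50.6% and 32.0%, and the embryo NRDE-3 IP gave 3 of the 5 against 27.4% and 10.5%. None of the 5 genes was called lower, against 6.94% of the genes tested in total small RNA, 21.5% in the embryo and 15.5% in the *eri-1* NRDE-3 IP, 11.9% with HRDE-1 and 16.4% with WAGO-1. Because the genes were chosen for gains in these pairs, the counts describe the choice, and nothing is read from the excess over the background.

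The members' median change on the log2 scale was 6.06 in the HRDE-1 IP, 3.08 in total small RNA, 3.07 in the *eri-1* NRDE-3 IP, 2.59 in the WAGO-1 IP and 1.17 in the embryo NRDE-3 IP. Over all genes tested the medians were 0.38, 0.58, 1.02, 0.08 and 0.30 in the same order, so the median gene was higher in the mutant in all 5 pairs. Scaling by trimmed means or by median ratios moved these medians to within 0.1 of 0, and the changes relative to the median are given below where they matter. By pair the genes fell into unlike patterns. NRDE-3 was examined only in embryos and labelled L3 larvae, and HRDE-1 and WAGO-1 only in young adults. A difference between NRDE-3 and the other Argonautes thus cannot be told apart from one of stage, or in the *eri-1* pair of food and *eri-1*. *mltn-3*, *nlp-40* and *F56B3.6* were called higher in all 5 pairs, *T05A8.1* in the 3 pairs of young adults, and *dct-11* in the *eri-1* NRDE-3 IP and total small RNA. For *nlp-40* the calls in both NRDE-3 IPs and the WAGO-1 IP were lost under another scaling, added reads or isoform choice. Among the 924 genes with at least 50 reads in each pair, 4.44% were called higher in all 5, and 8.56% of 2686 such genes were called in all 3 pairs of young adults. *nlp-40* and *F56B3.6* did not reach 50 reads in every pair and are not among the 924.

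**Figure D1:**
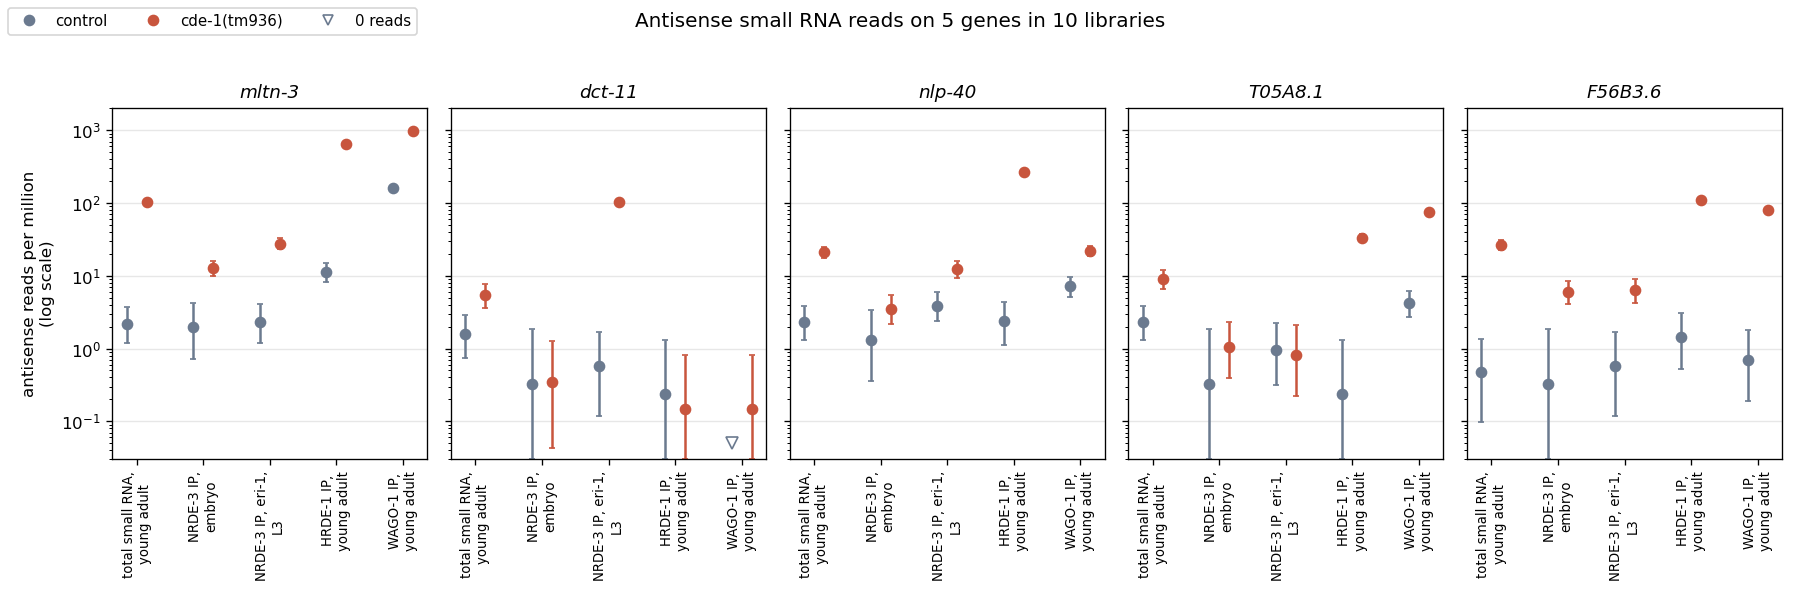
Antisense RPM (log axis) of each gene in the 10 libraries, controls in grey and *cde-1(tm936)* in red, with bars for the 95% exact Poisson interval cut off at the foot of the axis, and an open triangle near the foot for a library with 0 reads. The red points of *mltn-3* lie above the grey ones in every pair, while *dct-11* reached 102 RPM in the *eri-1* NRDE-3 IP and stayed at or below 0.352 RPM in the embryo, HRDE-1 and WAGO-1 IPs.

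*mltn-3* lies on chromosome II, 13916340 to 13919677 on the plus strand (WBcel235), with 8 exons and no other gene overlapping it. The mltn genes are named for their relation to *mlt-10*, a gene of the moulting cycle. In the controls it had 2.19 RPM in N2 total small RNA, 1.97 in the embryo NRDE-3 IP, 2.32 in the *eri-1* NRDE-3 IP, 11.1 with HRDE-1 and 163 with WAGO-1. In the matching *cde-1* mutants it had 102, 12.9, 27.8, 646 and 984 RPM. While *cde-1* was intact the WAGO-1 IP held 933 antisense reads on *mltn-3*, and the HRDE-1 IP 47 and the others 6 to 14. The intact WAGO-1 level was 74.6-fold (44.3 to 137) that of total small RNA, the 16th highest such ratio among 5131 genes, whose median was 3.94-fold.

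The gain in total small RNA, 46.7-fold (27.6 to 86.0), was the largest among the 802 genes with at least 200 reads there. It is taken as what chose *mltn-3*. In the other pairs the gain was 58.0-fold (43.5 to 79.0) with HRDE-1 and 6.03-fold (5.63 to 6.46) with WAGO-1. With NRDE-3 it was 12.0-fold (6.64 to 23.8) in *eri-1* and 6.52-fold (2.85 to 18.3) in embryos. The HRDE-1 gain ranked 6 of 7009 genes and the WAGO-1 gain 103 of 5145. The HRDE-1 change exceeded the WAGO-1 change by 3.24 on the log2 scale (2.81 to 3.66), rank 9 of the 4714 genes tested in both. The HRDE-1 level of *mltn-3* was thus 0.0682 of its WAGO-1 level with *cde-1* intact (0.0498 to 0.0915) and 0.656 of it without *cde-1* (0.631 to 0.682), where the median gene stood at 1.69 and 2.34. Sense reads on *mltn-3* were few in every library, between 0 and 55. With HRDE-1 they were 0 in the control and 11 in the mutant, at least 2.29-fold higher against a floor of 3 reads in the control. Intervals of the sense ratio spanned 1 in total small RNA, 1.77-fold (0.837 to 3.87), and in the WAGO-1 IP, 2.35-fold (0.800 to 8.34).

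The genes on either side of *mltn-3* differed. Downstream on the same strand lie *W02B8.4*, annotated as a pseudogene in Ensembl and counted among the protein-coding genes, and *mltn-5* (*W02B8.6*), and upstream lies *citk-1* (*W02B8.2*). With HRDE-1, *W02B8.4* went from 21 to 1380 reads, 41.0-fold (26.7 to 66.4), and *mltn-5* from 15 to 1379 reads, 57.4-fold (34.7 to 103). With WAGO-1 the gains were 4.94-fold (4.41 to 5.54) and 5.09-fold (4.56 to 5.70), and in total small RNA 13.9-fold (7.31 to 29.7) and 13.5-fold (7.80 to 25.2). In these 3 pairs the gains of both genes lay close to, or below, those of *mltn-3*. In the *eri-1* NRDE-3 IP they departed from it, *W02B8.4* with 2.17-fold (1.14 to 4.32) and *mltn-5* with 0.897-fold (0.623 to 1.29) against 12.0-fold for *mltn-3*. In embryos they had 30 and 28 reads in the mutant and 1 each in the control. Reads that match more than 1 of these related genes could be split among them by the counting, so their separate values are uncertain. *citk-1* had no gain in any pair, with ratios of 0.644 in total small RNA (0.508 to 0.812), 0.432 with HRDE-1 (0.405 to 0.460) and 0.644 with WAGO-1 (0.586 to 0.708).

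**Figure D2:**
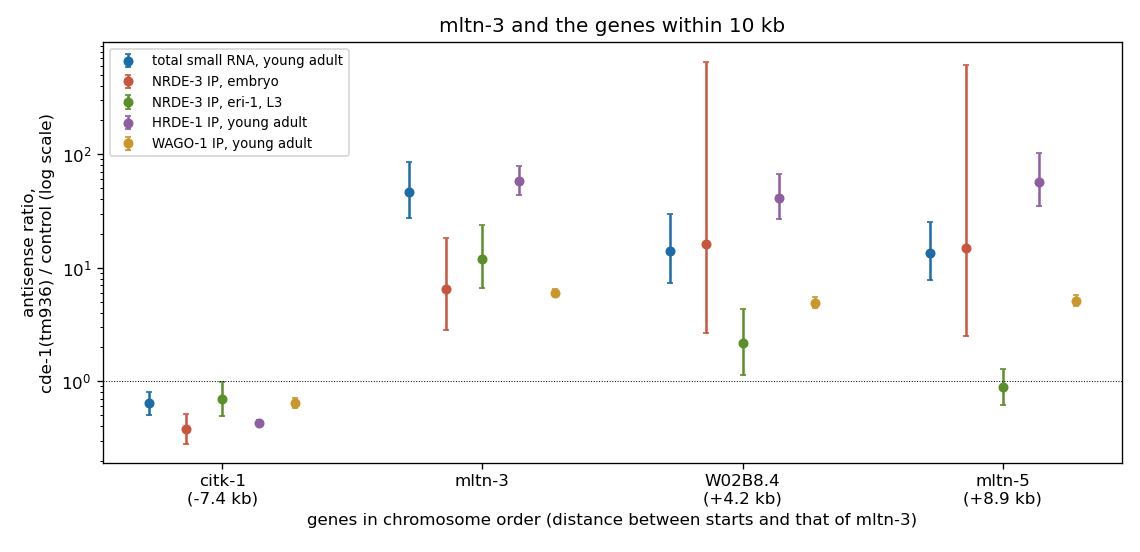
Ratio of antisense RPM, *cde-1(tm936)* over control (log axis), for *mltn-3* and the 3 genes within 10 kb in chromosome order, with 95% exact intervals and 1 colour per pair. *citk-1* lies below 1 in all pairs, and the purple HRDE-1 points of *mltn-3*, *W02B8.4* and *mltn-5* lie between 41.0 and 58.0.

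Markers of the hypodermis, the tissue that moults, were read beside *mltn-3*. The summed sense level of 8 markers was 281 and 434 RPM in the control and mutant with HRDE-1, 127 and 203 RPM with WAGO-1 and 875 and 873 RPM in total small RNA, and none of the 8 lacked a sense read. Their summed antisense level was 24.9 and 30.2 RPM with HRDE-1, 18.5 and 13.7 RPM with WAGO-1 and 9.22 and 18.8 RPM in total small RNA. In the *eri-1* NRDE-3 IP, labelled L3, their antisense level was 107 and 30.6 RPM and their sense level 1819 and 1327 RPM. In embryos these were 16.1 and 12.3 RPM antisense and 80.2 and 35.4 RPM sense. The part of these markers in the *mltn-3* result was not tested.

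A list of all mltn genes, added after the values of *mltn-5* had been seen, was read in the same pairs. Of its 12 genes, 3 had at least 50 reads in the HRDE-1 pair, and *mltn-3* and *mltn-5* were the 2 called higher. Of all genes tested there, 28.0% were called higher. *mltn-9*, the third, also on chromosome II, went from 53 to 85 reads, 1.00-fold (0.702 to 1.44). In the WAGO-1 IP, 2 of 4 were called higher and 2 lower, against 15.5% and 16.4% of all genes tested. *mltn-3* was the only mltn gene called among the 3 tested in the *eri-1* NRDE-3 IP, against 50.6% of all genes called higher. In embryos 1 of 2 was called higher and 1 lower, against 27.4% and 21.5%. In total small RNA *mltn-6* on chromosome V, from 9 to 20 reads, and *mltn-2*, from 2 to 11 reads, were also at least 2-fold higher but below 50 reads. *mltn-2* went from 0 to 6 reads with HRDE-1. Others below 50 reads went the other way. With HRDE-1, *mltn-7* on chromosome V went from 45 to 35 reads, 0.485-fold (0.303 to 0.772). *mltn-8*, also on chromosome V, went from 39 to 20, 0.320-fold (0.177 to 0.562). In embryos *mltn-6*, from 13 to 10 reads, *mltn-7*, from 10 to 4, and *mltn-11*, from 5 to 1, were at least 2-fold lower.

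*F56B3.6* lies on chromosome IV, 788055 to 790835 on the plus strand, with 3 exons. It sits inside the span of *F56B3.4*, which runs on the opposite strand and has no exon there. With *cde-1* intact it had next to no antisense reads anywhere, 0.469 RPM in total small RNA, 0.329 in the embryo and 0.580 in the *eri-1* NRDE-3 IP, 1.42 with HRDE-1 and 0.700 with WAGO-1. These levels rest on 1 to 6 reads a library. In the mutants it had 26.4, 5.99, 6.29, 110 and 81.1 RPM in the same order, above the control in all 5 pairs.

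The 116-fold gain of *F56B3.6* with WAGO-1 (45.0 to 427) was the largest there and is taken as what chose it. With HRDE-1 it gained 77.5-fold (35.4 to 212), rank 3 of 7009, and in total small RNA 56.3-fold (18.9 to 276), rank 3 of 3716. With NRDE-3 it gained 18.2-fold in embryos (3.05 to 740) and 10.8-fold in *eri-1* (3.38 to 55.4), both from at most 3 reads in the control. The HRDE-1 and WAGO-1 changes of *F56B3.6* differed by -0.48 on the log2 scale (-2.15 to 1.18), an interval that includes 0. *F56B3.4*, read from the other strand, was not called in any of the 3 pairs of young adults, with ratios of 1.56 in total small RNA (0.997 to 2.48), 1.55 with HRDE-1 (1.20 to 2.02) and 1.86 with WAGO-1 (1.33 to 2.64). Of the 6 genes within 10 kb, 5 had at least 50 reads with HRDE-1 and 1 was called higher, against 28.0% of all genes tested. It was *ech-5*, from 13 to 74 reads, 3.55-fold (1.95 to 6.98). With WAGO-1, 0 of 4 were called higher, against 15.5%. In *eri-1*, *ech-5* went from 4 to 18 reads, *F56B3.11* from 6 to 17 and *skr-18* from 28 to 11.

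The strand of the reads on *F56B3.6* turned over with the genotype. In N2 total small RNA 3.80% of its 79 reads were antisense (0.790% to 10.7%), and in the mutant 73.5% of 200 (66.8% to 79.5%). With HRDE-1 the share went from 24.0% (9.36% to 45.1%) to 97.1% (95.7% to 98.2%). Sense levels themselves differed less, with 0.801-fold in total small RNA (0.553 to 1.15), 0.722-fold with HRDE-1 (0.373 to 1.41) and 1.16-fold with WAGO-1 (0.639 to 2.14), all intervals that include 1.

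*nlp-40* lies on chromosome I, 11495 to 16837 on the plus strand, with 4 annotated transcripts and 7 rows in the count files. It encodes a neuropeptide-like peptide that is released from the intestine and drives the expulsion step of the defecation motor program through the receptor AEX-2 on GABAergic neurons. In the controls it had 2.34 RPM in total small RNA, 1.32 in the embryo and 3.87 in the *eri-1* NRDE-3 IP, 2.37 with HRDE-1 and 7.17 with WAGO-1. In the mutants it had 21.0, 3.52, 12.4, 263 and 21.9 RPM. The HRDE-1 IP of the mutant stood far above every other library, which all held at most 21.9 RPM.

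The HRDE-1 gain of *nlp-40*, 111-fold (60.3 to 232), ranked 1 of 7009 and is taken as what chose it. The gain was 8.96-fold (5.22 to 16.5) in total small RNA, rank 41 of 3716, and 3.05-fold (2.15 to 4.42) with WAGO-1, rank 362 of 5145. In the *eri-1* NRDE-3 IP it was 3.20-fold (1.90 to 5.60), where the median gene gained 2.03-fold and *nlp-40* ranked 890 of 2949. In the embryo NRDE-3 IP it was 2.68-fold (0.897 to 10.8), from 4 to 20 reads, which counting error alone could not tell from no change. The calls of *nlp-40* with NRDE-3 were lost on other scalings, with log2 changes of 0.70 and 0.60 in *eri-1* and 0.94 and 0.84 in embryos under trimmed means and median ratios. With the single isoform row that had the most reads, the WAGO-1 change was 0.33 on the log2 scale and below the call.

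As a description, since the HRDE-1 pair chose it, the HRDE-1 change of *nlp-40* exceeded its WAGO-1 change by 5.08 on the log2 scale (4.09 to 6.06), rank 2 of 4714 genes. Its HRDE-1 level was 0.330 of the WAGO-1 level with *cde-1* intact (0.148 to 0.671) and 12.0-fold that level without it (10.2 to 14.3). Of the 4714 genes tested in both IPs, 16.5% were called higher with HRDE-1 only, 5.18% with WAGO-1 only and 10.7% with both. In the HRDE-1 mutant library the 1782 antisense reads were spread over the 7 rows, with 218 to 273 in each.

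Most reads on *nlp-40* in total small RNA were sense, 527 in N2 and 568 in the mutant, 1.24-fold (1.10 to 1.40). Antisense reads made up 2.77% of the reads on the gene in N2 (1.56% to 4.52%) and 17.1% in the mutant (14.3% to 20.1%), and with HRDE-1 they went from 12.8% (6.32% to 22.3%) to 92.5% (91.2% to 93.6%). The neighbours on both sides were not called in any of the 3 pairs of young adults. *homt-1* stood at 0.510-fold (0.395 to 0.656) and *rcor-1* at 1.49-fold (1.19 to 1.88) with HRDE-1.

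Intestinal markers, vitellogenin genes among them, also had a higher summed sense level in the HRDE-1 mutant library than in its control. Sense reads on *nlp-40* itself went from 68 to 145 in the HRDE-1 pair, 1.33-fold (0.991 to 1.80), an interval that includes 1. The summed sense level of 13 intestinal markers was 5829 RPM in the HRDE-1 control and 11607 RPM in the mutant, 4893 and 6891 RPM with WAGO-1, and 78696 and 77723 RPM in total small RNA. Their summed antisense level was 38.1 and 43.9 RPM with HRDE-1 and 15.0 and 15.7 RPM with WAGO-1, and none of the 13 lacked a sense read in these libraries. The part of this in the *nlp-40* result was not tested, and the number of cells of a type and the RNA per cell cannot be told apart in whole animals.

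*T05A8.1* lies on chromosome II, 2708438 to 2710042 on the minus strand, with 5 exons and 2 rows in the count files. In the controls it had 2.34 RPM in total small RNA, 0.329 in the embryo and 0.967 in the *eri-1* NRDE-3 IP, 0.237 with HRDE-1 and 4.20 with WAGO-1. In the mutants it had 8.97, 1.06, 0.812, 33.3 and 76.1 RPM. The HRDE-1 and WAGO-1 mutant libraries were high, total small RNA was intermediate, and both NRDE-3 pairs held 1 to 6 reads a library.

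The HRDE-1 gain of *T05A8.1* rests on 1 read in the control and 225 in the mutant, 140-fold (24.9 to 5569). With rank 2 of 7009 this gain is taken as what chose the gene. With WAGO-1 it gained 18.1-fold (12.0 to 28.5), from 24 to 518 reads, rank 21 of 5145, and in total small RNA 3.83-fold (2.12 to 7.34), rank 138 of 3716. With NRDE-3 its ratios were 3.21 in embryos (0.390 to 148) and 0.839 in *eri-1* (0.167 to 3.90), so that no gain was detectable with NRDE-3 at this depth, and a gain of up to 3.90-fold in *eri-1* is within counting error. The *eri-1* change less that of total small RNA was -2.07 on the log2 scale (-3.96 to -0.17). The HRDE-1 change less the WAGO-1 change was 2.02 on the log2 scale (-0.07 to 4.11), an interval that includes 0. With *cde-1* intact the HRDE-1 level was 0.0564 of the WAGO-1 level (0.00137 to 0.346). Without *cde-1* it was 0.437 of the WAGO-1 level (0.372 to 0.512), where the median gene stood at 2.34.

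The nearest genes of *T05A8.1* differed from it and from each other. *Y47G7B.2* went from 570 to 2507 reads with HRDE-1, 2.74-fold (2.50 to 3.01), and from 1379 to 4706 with WAGO-1, 2.87-fold (2.70 to 3.05). On the other side *T05A8.2* held 0 to 5 antisense reads in each library of young adults. Of the 8 genes within 10 kb, 1 had at least 50 reads in either IP of young adults.

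*dct-11* lies on chromosome X, 5838039 to 5839778 on the minus strand, with 6 exons. The dct genes are named as genes controlled by DAF-16, the FOXO factor of insulin signalling, that affect germline tumours. In the controls it had 1.56 RPM in total small RNA, 0.329 in the embryo and 0.580 in the *eri-1* NRDE-3 IP, 0.237 with HRDE-1 and 0 with WAGO-1. In the mutants it had 5.38, 0.352, 102, 0.148 and 0.147 RPM. A single library, the *eri-1*;*cde-1* NRDE-3 IP with 504 reads, was high, and the embryo, HRDE-1 and WAGO-1 IPs held 0 to 2 reads each.

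The *eri-1* NRDE-3 gain of *dct-11*, from 3 to 504 reads or 176-fold (60.0 to 858), ranked 1 of 2949 and is taken as what chose it. In total small RNA it was 3.45-fold (1.64 to 7.90), from 10 to 30 reads, where the median gene gained 1.49-fold. As a description, the *eri-1* NRDE-3 change exceeded that of total small RNA by 5.35 on the log2 scale (3.62 to 7.09). The embryo NRDE-3 IP held 1 read in the control and 2 in the mutant, so its change is not compared. In the HRDE-1 and WAGO-1 IPs the floor of 3 reads, 0.441 to 0.711 RPM, was not passed in either genotype, so no ratio is given. The embryo and *eri-1* pairs differ in stage, food and *eri-1* together, and these cannot be told apart. In the *eri-1* pair only 12.6% and 20.6% of the protein-coding reads were antisense, near the shares of total small RNA. With no total small RNA library of L3 larvae, enrichment of the *dct-11* reads with NRDE-3 could not be examined.

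Sense reads on *dct-11* in the *eri-1* pair went from 79 to 58, 0.770-fold (0.539 to 1.09), an interval that includes 1. On the log2 scale this was -0.37, close to the median sense change of -0.31 over 7838 genes with at least 50 sense reads. The antisense share of the reads on the gene went from 3.66% (0.761% to 10.3%) to 89.7% (86.9% to 92.1%). Its nearest neighbours *F13D11.4* and *puf-9* were not called in total small RNA, with 1.31-fold (0.416 to 4.25) and 1.06-fold (0.731 to 1.53). None of the 4 genes within 10 kb reached 50 reads in either library of the *eri-1* pair. The other two, *acp-5* and *atat-2*, had few reads and were at least 2-fold higher in total small RNA, from 4 to 11 reads or 3.16-fold (0.936 to 13.6) and from 1 to 9 reads or 10.3-fold (1.43 to 453). In the *eri-1* pair *acp-5* went from 12 to 35 reads, 3.06-fold (1.55 to 6.48), and *atat-2* from 12 to 4.

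**Figure D3:**
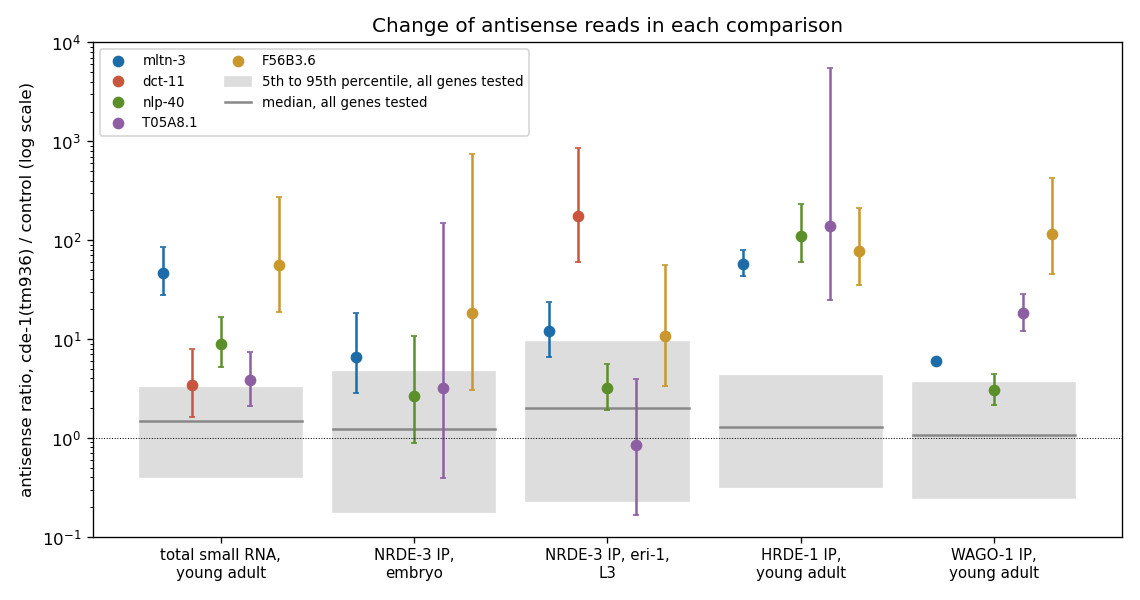
Ratio of antisense RPM, *cde-1(tm936)* over control (log axis), for each gene and pair with 95% exact intervals, over the 5th to 95th percentile (grey box) and median (grey line) of all genes tested. *dct-11* has no point where both libraries held at most 3 reads, and its only point above the grey box by more than its interval is the 176-fold gain in the *eri-1* NRDE-3 IP.

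Per kilobase of exon, which allows levels to be set between genes, the mutant HRDE-1 library held 369 RPM on *nlp-40*, 287 on *mltn-3*, 140 on *F56B3.6* and 23.3 on *T05A8.1*. The mutant WAGO-1 library held 438 RPM per kilobase on *mltn-3*, 103 on *F56B3.6*, 53.4 on *T05A8.1* and 30.7 on *nlp-40*. Per kilobase, the order of *nlp-40* and *mltn-3* was opposite in these 2 mutant libraries. Without division by exon length *mltn-3* was above *nlp-40* in both, 646 against 263 RPM with HRDE-1 and 984 against 21.9 RPM with WAGO-1. The HRDE-1 pair chose *nlp-40*, so its place in that library is a description. The mutant *eri-1* NRDE-3 library held 112 RPM per kilobase on *dct-11*, 17.3 on *nlp-40*, 12.4 on *mltn-3*, 7.97 on *F56B3.6* and 0.569 on *T05A8.1*. In the mutant embryo NRDE-3 library *F56B3.6* with 7.59, *mltn-3* with 5.72 and *nlp-40* with 4.93 RPM per kilobase lay close together.

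**Figure D4:**
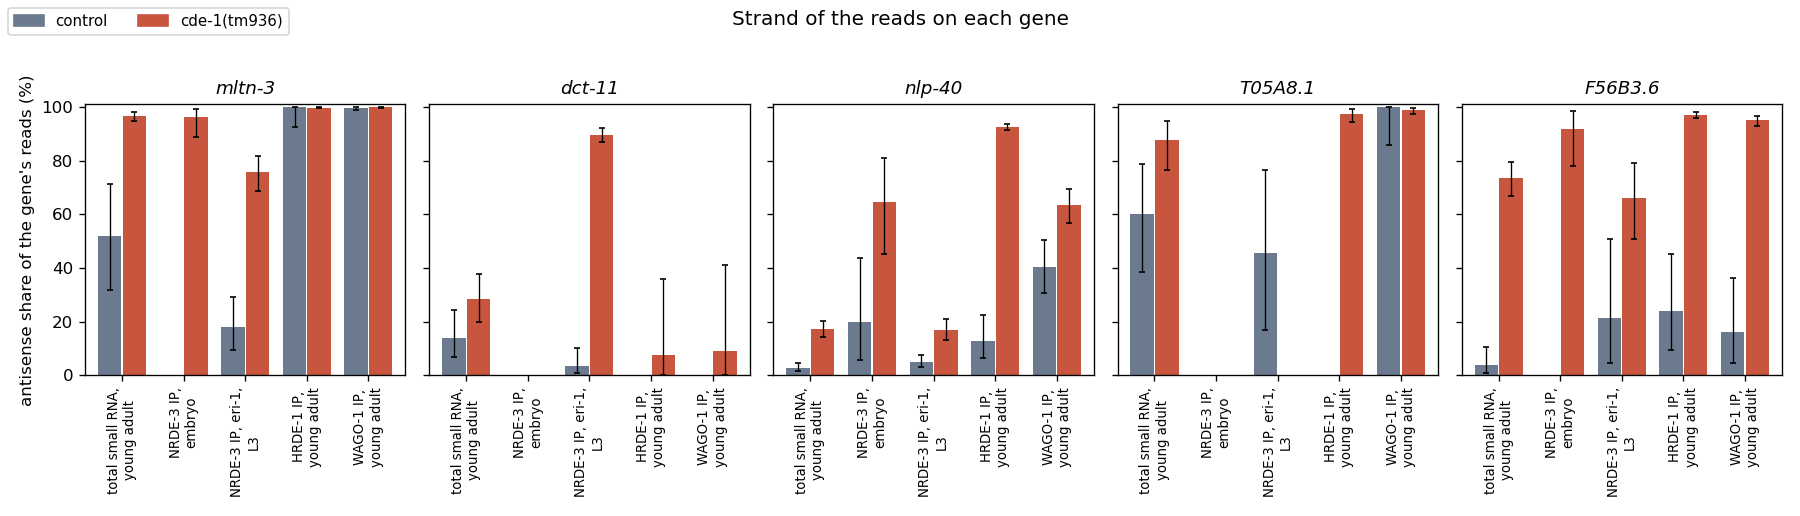
Antisense share of the reads on each gene in percent, control in grey and *cde-1(tm936)* in red, with 95% exact binomial intervals. Libraries with fewer than 10 reads on the gene are left blank. For *F56B3.6* the share went from 3.80% to 73.5% in total small RNA, while *mltn-3* had almost only antisense reads in both genotypes with HRDE-1 and with WAGO-1.

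Across the 10 libraries the antisense profiles of *mltn-3*, *nlp-40*, *T05A8.1* and *F56B3.6* ran together, with Pearson r of log2(RPM + 1) between 0.78 and 0.88 for each pair of genes. *dct-11* had r between -0.22 and 0.07 with the others. The correlations describe 10 libraries that include the pairs used to choose the genes, and they share those libraries' depth.

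The genes most like each of the 5 were taken from the 8443 others with at least 50 reads in some library. They were picked by their profiles over these same 10 libraries. Their gains, here and below, follow from that choice and are given as a description. *W02B8.4* (r = 0.98), *R11E3.2* (0.97) and *F23C8.13* (0.97) were most like *mltn-3*. *F23C8.13* went from 151 to 4305 reads with WAGO-1, 23.9-fold (20.4 to 28.3), a larger WAGO-1 gain than that of *mltn-3*. For *nlp-40* they were *ugt-22*, a UDP-glucuronosyltransferase gene (0.95), *Y71F9B.1* (0.93) and *C55C3.7* (0.93). *ugt-22* gained 23.7-fold with HRDE-1 (15.9 to 36.7) and 2.93-fold with WAGO-1 (1.95 to 4.51).

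The genes most like *T05A8.1* were the nuclear hormone receptor gene *nhr-211* (r = 0.97), *Y46G5A.34* (0.96) and *pals-30* (0.96). *nhr-211* held 67 reads with HRDE-1 and 106 with WAGO-1 in the mutants, from 1 and 2 in the controls. For *F56B3.6* they were *Y49E10.25* (0.96), *Y48G9A.9* (0.94) and *pqn-15* (0.94), of which *Y48G9A.9* gained 8.24-fold with HRDE-1 (5.17 to 13.9).

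For *dct-11* they were the chemoreceptor-family gene *srt-32* (r = 0.99), the saposin-like gene *spp-1* (0.99) and *pck-2*, a phosphoenolpyruvate carboxykinase gene (0.99). In the *eri-1* NRDE-3 pair *srt-32* went from 1 to 109 reads, *spp-1* from 2 to 156 and *pck-2* from 52 to 1017, the last 20.5-fold (15.5 to 27.7). *pck-2* was also called higher in total small RNA, from 71 to 148 reads or 2.40-fold (1.79 to 3.23). It stood at 1.64-fold in embryos (0.917 to 3.09), 1.30-fold with HRDE-1 (0.797 to 2.16) and 1.11-fold with WAGO-1 (0.724 to 1.72), 3 intervals that include 1.

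Other genes of the same families and pathways were read from lists fixed by symbol. Of all genes tested, 28.0% were called higher and 11.9% lower with HRDE-1, and 15.5% and 16.4% with WAGO-1. The shares were 22.8% and 6.94% in total small RNA, 50.6% and 15.5% in *eri-1*, and 27.4% and 21.5% in embryos. The list counts here and below rest on few genes and are to be set beside these shares. Of 71 neuropeptide-like protein genes, 6 had at least 50 reads in the HRDE-1 pair, 2 were called higher and 1 lower, with a list median of -0.08 on the log2 scale against 0.38 for all genes. *nlp-40*, chosen by its gain with HRDE-1, is 1 of the 2. With WAGO-1, 3 of 6 were called higher, and in total small RNA 3 of 6 were called higher and 1 lower. The *eri-1* NRDE-3 IP gave 1 of 2 higher and 1 lower, and the embryo IP 0 of 1. *nlp-12* gained 3.41-fold with WAGO-1 (3.13 to 3.72) and stood at 0.956-fold with HRDE-1 (0.844 to 1.08), while *nlp-81* stood at 0.454-fold with HRDE-1 (0.416 to 0.496).

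Of 8 genes that process or release peptides, 1 of 5 tested was called higher and 2 lower with HRDE-1, and 2 of 5 higher and 2 lower with WAGO-1. *egl-21*, the carboxypeptidase that trims neuropeptide precursors, gained 7.50-fold with HRDE-1 (6.43 to 8.79), 10.5-fold with WAGO-1 (9.55 to 11.6) and 4.68-fold in total small RNA (3.07 to 7.35). *unc-31*, needed for dense-core vesicle release, gained 2.37-fold with WAGO-1 (2.01 to 2.81). In the *eri-1* NRDE-3 IP, 0 of 2 genes of this list were called, and in embryos 0 of the 8 reached 50 reads.

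Of 20 defecation genes, 0 of 6 tested were called higher and 2 lower with HRDE-1, 1 of 3 higher and 1 lower with WAGO-1, and 2 of 6 higher in total small RNA. NRDE-3 gave 2 of 9 higher and 2 lower in *eri-1* and 0 of 1 in embryos. *aex-6*, a Rab GTPase of this program, gained 2.64-fold with WAGO-1 (2.55 to 2.74) and 1.43-fold with HRDE-1 (1.36 to 1.49). Of 31 FMRFamide-like peptide genes, 1 of 3 tested was called higher with HRDE-1 and 2 of 2 with WAGO-1. *flp-14* gained 6.37-fold (4.18 to 10.1) and 4.57-fold (3.22 to 6.65) in these. Of 38 insulin-like peptide genes, 0 of 4 were called higher and 1 lower with HRDE-1, and 0 of 3 higher and 2 lower with WAGO-1.

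Of 15 dct genes, 3 had at least 50 reads in the *eri-1* NRDE-3 pair and 3 were called higher there, with a median of 3.06 on the log2 scale against 1.02 for all genes. *dct-11*, chosen by this pair, is 1 of the 3, and 50.6% of all genes tested were called higher there. *dct-16* went from 42 to 199 antisense reads, 4.97-fold (3.55 to 7.11), and its sense reads from 4739 to 1761. The median sense change in this pair was -0.31 on the log2 scale, and a link between the 2 strands was not tested. With HRDE-1, 0 of 2 dct genes were called higher and 1 lower, and with WAGO-1 0 of 1 higher and 1 lower. Of 12 genes of the insulin and FOXO pathway, 4 of 5 were called higher in the *eri-1* NRDE-3 pair, 5 of 9 higher and 1 lower with HRDE-1, and 1 of 7 higher with WAGO-1, against 50.6%, 28.0% and 15.5% of all genes tested. In total small RNA 2 of 7 and in embryos 2 of 4 were called higher, against 22.8% and 27.4%. *daf-16* itself was called higher with WAGO-1 alone, at 2.54-fold (2.41 to 2.68). It stood at 1.98-fold with HRDE-1 (1.88 to 2.10), 1.68-fold in total small RNA (1.41 to 2.00), 1.42-fold in the *eri-1* NRDE-3 IP (1.12 to 1.80) and 0.799-fold in embryos (0.581 to 1.11).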

How the data were processed

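Small RNAs of 10 libraries were sequenced after alkaline phosphatase and polynucleotide kinase treatment. After adaptor and quality trimming, the authors aligned reads 18 to 30 nt long with Bowtie2 (default settings) against transcripts of release WS243, and a Perl script tallied them. The files hold these deposited counts, not normalized, in a column for sense and a column for antisense reads of every transcript. Bowtie2 at its default places a read that matches several transcripts on only 1 of them, so isoform rows were summed.

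Excluded were 1 to 3 rows a library without class or gene (0.00152% of reads or less). The table of 26S rRNA tails holds 6 columns of values whose names match no sample label, and it was not used here. In 1 sample title another *cde-1* allele is printed, and the genotype label was followed.

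Levels were divided by counted reads outside the rRNA class. Levels have exact Poisson intervals, shares and ratios exact Clopper-Pearson intervals, and differences of log2 changes normal intervals on counts with 1 read added, all at 95%. PCR copies are not told apart from molecules. Ratios were not computed where both counts were at most 3 reads. A gene entered the background with at least 50 antisense reads in either library. Positions and symbols were taken from the Ensembl 115 annotation of WBcel235, which holds 44852 of the 45510 counted genes by their transcript names.

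The 5 genes, the lists and the rules were chosen with earlier results of these data known. Named besides them are their nearest genes, the 3 genes of most similar profile, at most 2 genes a list with the most antisense reads, and *cid-1*. A pair was taken to have chosen a gene where it ranked among the top 2 genes with at least 200 reads. Alternatives covered 6 denominators or scalings (TMM by edgeR 4.0.16), 0.5 or 10 reads added, the isoform row with the most reads, and other read minimums. The calling was run on simulated counts with Poisson error alone, changes being planted in genes with at least 50 control reads. It does not cover genes with fewer control reads, as most of the 5 had, or differences between cultures or IPs. Python 3.11.15, scipy 1.17.1 and R 4.3.3 were used.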

Additional observations from a re-analysis of the deposited data

Results flagged for a closer look

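*T05A8.1* was the only one of the 5 genes with a ratio below 1 where a ratio could be computed. It had 0.839 of the control's antisense RPM in the *eri-1* NRDE-3 IP, from 5 to 4 reads, and more than the control in the 4 other pairs. The difference in direction was not tested, and the interval of 0.167 to 3.90 includes 1.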

How the results depend on the processing

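Of the 20 calls of a gene in a pair, 17 were also made under each of the 9 alternatives run, and none of the 20 changed sign. The other 3 were those of *nlp-40* in both NRDE-3 IPs and the WAGO-1 IP, lost under the scalings, added reads or isoform choice with log2 changes of 0.94, 0.84 and 0.20 in embryos, 0.70, 0.60 and 0.58 in *eri-1* and 0.33 with WAGO-1. The number of the 5 genes called ranged from 2 to 4 in embryos, 3 to 4 in *eri-1* and with WAGO-1, and was 5 and 4 throughout in total small RNA and with HRDE-1. Counts over all genes moved more. With antisense protein-coding reads as the denominator, 399 genes in place of 849 were called higher in total small RNA and 950 in place of 1492 in *eri-1*. TMM scaling gave 223 in total small RNA, 634 in *eri-1* and 1277 in place of 1964 with HRDE-1, and median-of-ratios scaling gave 210, 560 and 1224. With all counted reads as the denominator, 951 in place of 434 were called in embryos, and with 10 reads added 263. A minimum of 10 reads gave 2511 in total small RNA, 1183 in embryos, 3631 in *eri-1* and 1211 with WAGO-1, a minimum of 200 reads gave 213, 106, 322 and 463, and no minimum gave 4853, 1816, 6125 and 2169, with 799 the count at 50 reads for WAGO-1. Fewer or more genes enter by construction, and for the denominators and scalings the cause was not tested.

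Of the genes called in either direction, the share called higher was 76.7% in total small RNA (65.4%, 50.8%, 29.5% and 27.8% with all reads, antisense reads, TMM and median ratios), 56.1% in embryos (88.2% with all reads, 67.6% with miRNA reads, 42.4% with median ratios), 76.5% in *eri-1* (58.8%, 43.7% and 39.5% with antisense reads, TMM and median ratios), 70.2% with HRDE-1 (50.3% and 48.4% with TMM and median ratios) and 48.7% with WAGO-1 (35.8% with miRNA reads). A fit over all pairs with the pair as a block was not run, since the pairs differ in RNA fraction, stage or strain. With 1 library per genotype, differences between cultures or IPs cannot be told apart from those of *cde-1*.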
